A study of Danio rerio with 6 samples.

Results

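The regions described here are stretches of open chromatin that were called in every library of the study but stood higher in the ranking of the non-endothelial libraries than in that of the endothelial libraries. Joining any peaks of the 6 lists that shared 1 bp or more gave 187225 union regions. Of these 20275 held a peak in all 6 libraries, and 17714 of those were over 300 and under 1000 bp wide (the candidates). For each library, the highest fold enrichment in a candidate was turned into a percentile, the share of all peaks of that library's list with a fold at or below it. A candidate was a member when its lowest GFPminus percentile exceeded its highest GFPplus percentile by at least 10 points. This held for 499 regions, which is 2.82% of the candidates. The same margin in the opposite direction held for 165 candidates (0.931%). The members were chosen by fold enrichment in these 6 libraries, so their fold values and percentiles are given as a description and were not tested.

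ATAC-seq reads out where a transposase can insert adapters into DNA, which is mostly at nucleosome-depleted promoters and enhancers. Promoters tend to be accessible in many cell types, while many enhancers are accessible in the lineages that use them, so a region called in both fractions can still differ in degree. In a bulk library, fewer nuclei with an open site and a less open site in every nucleus cannot be told apart.

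The embryos were zebrafish of the line Tg(fli1a:egfp), taken 24 hours post fertilization, and each library was made from 20000 sorted nuclei. GFPplus (3 libraries) is labelled as endothelial and GFPminus (3 libraries) as non-endothelial, and the design text calls the 3 libraries of a fraction biological replicates. GFP is driven by regulatory sequence of fli1a, an ETS factor gene of endothelium that is also known to be expressed in cranial neural crest derivatives, so the sort follows transgene activity. GFPminus holds all remaining cell types of the embryo in one pool, and the purity of neither fraction was measured here. The series title names developmentally active endothelial enhancers as the aim, and the regions below were set on the other side of that comparison. No gene could be assigned to a region, because the peaks lie on build Zv9 and the gene table at hand is of another build, so regions are named by position and no defining marker of endothelium could be checked.

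The lists differed in length, from 33437 peaks in GFPminus replicate 3 to 113476 in GFPminus replicate 1, and peak lists do not give the read depth. A region called everywhere ranks higher in a long list, since a long list has more weak peaks below it. The median candidate lay at the 88.7 and 88.6 percentiles in GFPminus replicates 1 and 2, at 65.4 in GFPminus replicate 3, and at 81.4, 82.6 and 73.7 in GFPplus replicates 1 to 3. GFPminus replicate 3 therefore stood apart. It was the lowest GFPminus library for 15261 candidates (86.2%) and for 401 of the 499 members (80.4%). Without it, the same rule gave 3011 of 23449 candidates (12.8%), and 494 of the 499 members were among them. Across the candidates, Spearman's rho of the percentiles ran from 0.682 to 0.849 for pairs of libraries of one fraction and from 0.553 to 0.701 for pairs of different fractions. These points are regions of the same libraries, and the values are a description.

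In GFPminus nuclei the median member lay at the 91.7, 90.5 and 81.3 percentiles of replicates 1 to 3. In GFPplus nuclei it lay at the 48.1, 53.1 and 36.7 percentiles. The GFPplus values were thus far below those of the median candidate in all 3 libraries, whereas in GFPminus replicates 1 and 2 the members lay within 4 points of the median candidate. In GFPminus replicate 3 the members stood above it. The rule sets part of this contrast, since it keeps every GFPplus percentile of a member at or below 90. In GFPminus replicates 1 and 2 the median candidate already lay at 88.7 and 88.6. When percentiles were taken among the candidates instead, the rule gave 967 regions. Their median fold was 10.1 and 9.72 in GFPminus replicates 1 and 2, against 7.78 and 7.65 for all candidates. In GFPplus replicates 1 to 3 it was 5.77, 5.46 and 5.09, against 7.44, 6.74 and 6.91. These 967 regions, of which 359 were members, were chosen by the same folds. Their medians are thus a description of another choice and add no separate evidence.

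**Figure D1:**
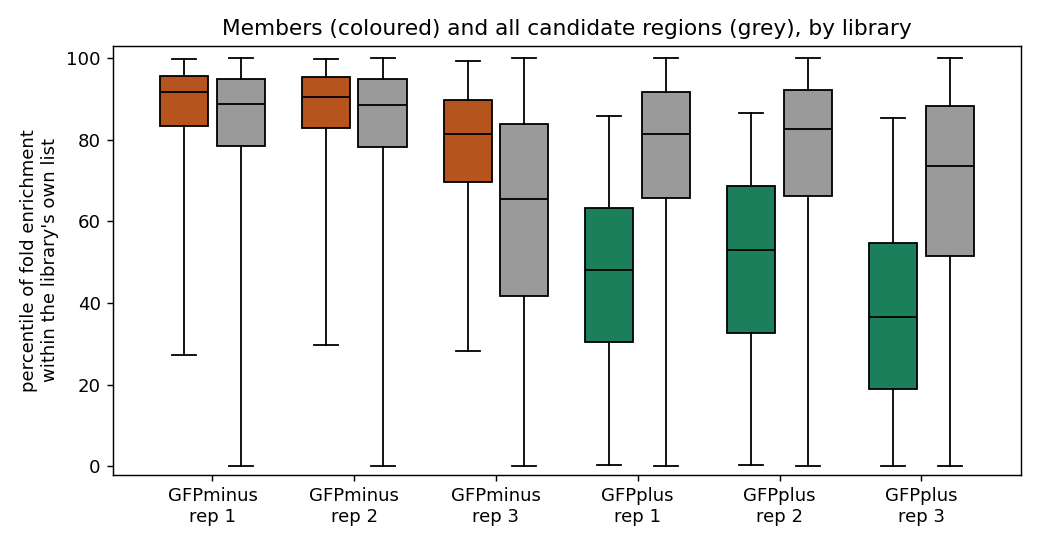
Percentile of fold enrichment (vertical axis, percent of the library's own peaks at or below) of the 499 members (coloured, orange for GFPminus and green for GFPplus) and of the 17714 candidates (grey) in each library. Boxes run from the lower to the upper quartile with the median as a line, and whiskers reach the lowest and highest region. Members lie low in the GFPplus libraries (medians 36.7 to 53.1) and high in GFPminus libraries (81.3 to 91.7).

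The fold enrichments themselves, which are not ranked within a list, showed the same order. The median fold of the members was 8.72, 8.18 and 7.84 in GFPminus replicates 1 to 3 and 4.70, 4.63 and 4.78 in GFPplus replicates 1 to 3. The median candidate had 7.78, 7.65 and 6.23 in GFPminus and 7.44, 6.74 and 6.91 in GFPplus. It was thus highest in the longest list and lowest in the shortest, and the part of list length in the fold was not tested. For 471 members (94.4%) all 3 GFPminus folds exceeded all 3 GFPplus folds, a pattern found in 11.0% of the candidates (the reverse was found in 7.75%). The other 28 members overlapped between the fractions in fold although their percentiles did not. Only 138 members (27.7%) had a lowest GFPminus fold at least 1.5 times the highest GFPplus fold, against 0.858% of the candidates (0.299% in the reverse direction). The authors' −log10 p, which grows with depth, was also higher in all GFPminus than in all GFPplus libraries for 477 members, against 7.33% of the candidates. As fold and −log10 p describe the same peaks that the rule used, these counts add no separate evidence.

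The mean GFPminus fold was 1.72 times the mean GFPplus fold at the median member. The ratio ran from 1.09 to 3.16, with quartiles of 1.48 and 1.95. At the median candidate it was 1.01, and the upper quartile of the candidates was 1.16. A ratio of at least 2 was reached by 109 members (21.8%), and 135 (27.1%) stayed under 1.5. Both were counted in the members alone, and the rule partly sets a high ratio. Most gaps were small. They were under 15 points in 177 members (35.5%), between 15 and 20 points in 126, between 20 and 30 in 122, between 30 and 40 in 54, and 40 points or more in 20.

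**Figure D2:**
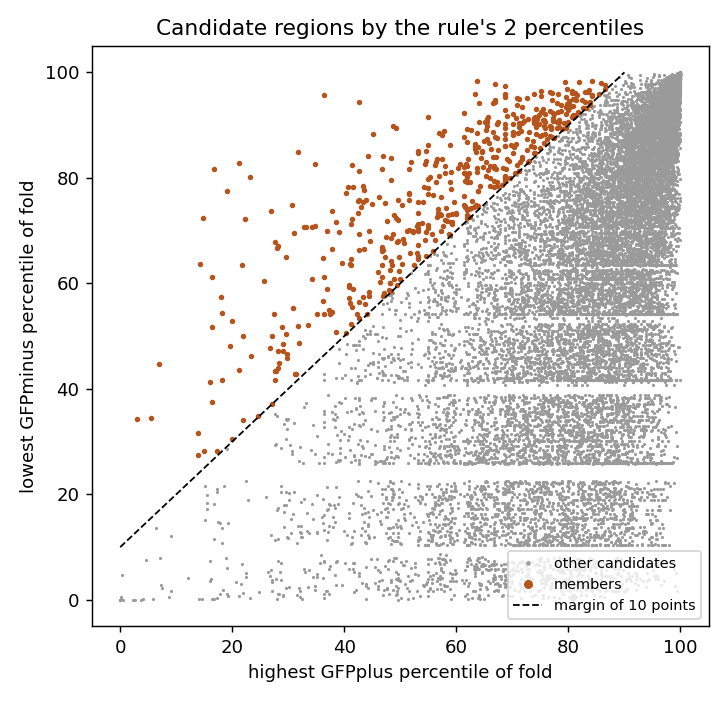
Each point is a candidate region, placed by its highest GFPplus percentile (horizontal axis) and its lowest GFPminus percentile (vertical axis) of fold enrichment. Members (orange) lie on or above the dashed line, where GFPminus leads by 10 points, and most lie close to it. No member can lie to the right of the 90 percentile of GFPplus.

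The members were not one uniform class. In 116 members (23.2%) all 3 GFPminus percentiles were at least 90, so the region belonged to the upper part of each GFPminus list. In 168 members (33.7%) all 3 GFPplus percentiles were under 50, and in 30 members they were under 25. Both extremes met in 2 members (all 3 GFPminus at least 90, all 3 GFPplus under 50). At the other end, 36 members stayed under the 75 percentile in every GFPminus library, with a median fold ratio of 1.27. These classes were counted in the members alone, so the shares do not show whether members differ from other candidates in them. The margin of 10 points also sets a ceiling. The highest GFPplus percentile was above 90 in 7231 candidates (40.8%), which could not become members, and 9 of those had a lowest GFPminus fold at least 1.5 times the highest GFPplus fold. The members therefore leave out strongly accessible regions that were stronger still in GFPminus nuclei.

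Replicates of the fraction with the weaker signal ranked a member less alike. The range of the percentile over the 3 GFPplus libraries had a median of 23.3 points in the members and 15.8 points in the candidates. Over the 3 GFPminus libraries it was 10.4 points in the members and 23.0 points in the candidates. Medians in the opposite regions were 27.6 points over the GFPminus and 7.16 points over the GFPplus libraries, so the order was turned round there. A narrow GFPminus range is partly fixed by the rule, because a low value in a single GFPminus library keeps a region out. The wide GFPplus range also comes from percentiles that the rule used, and the part of the choice in it was not tested. These ranges concern ranks alone, and the spread of the fold between replicates was not compared over the members.

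The 10 members with the largest gap were weak GFPplus peaks at places of middle to high GFPminus signal. None of the 10 remained a candidate when the lists were cut to an equal length of 33437 peaks. On chromosome 14 at 50937183 to 50937718 (536 bp, Zv9), the fold was 7.53, 8.18 and 7.89 in GFPminus replicates 1 to 3 and 3.69, 3.51 and 3.68 in GFPplus replicates 1 to 3. Percentiles there were at least 81.6 in GFPminus and at most 16.8 in GFPplus. This is the largest gap of all members (64.8 points), by which the region was picked. The GFPplus peaks were weak, with a −log10 p of 4.50 to 5.34 and widths of 115 to 208 bp. Their summits spanned 349 bp, against 33 bp in GFPminus, and whether they mark the same site was not tested. On chromosome 10 at 10296131 to 10296785, the fold was 6.99, 7.44 and 8.06 in GFPminus and 3.11, 3.80 and 3.44 in GFPplus. Replicate 3, which has the shortest list, had the highest GFPminus fold at this place but the lowest GFPminus percentile (82.7).

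On chromosome 16 at 18756763 to 18757211, the fold was 12.8, 13.9 and 11.6 in GFPminus and 4.24, 3.83 and 4.12 in GFPplus replicates 1 to 3. It is one of the 2 members at the upper extreme of GFPminus and the lower part of GFPplus. At the other, on chromosome 2 at 41416036 to 41416546, the libraries had folds of 13.5, 16.3 and 10.9 in GFPminus and 3.85, 4.25 and 4.89 in GFPplus. At this region the GFPminus peaks were 438 to 511 bp wide and the GFPplus peaks 115 to 125 bp wide. The remaining 6 of the 10 lay on chromosomes 22, 8, 25, 16 and 2 and on an unplaced scaffold. Their fold ratios ran from 1.78 to 2.69. The choice by largest gap fixes that the fractions do not overlap in percentile in any of them.

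**Figure D3:**
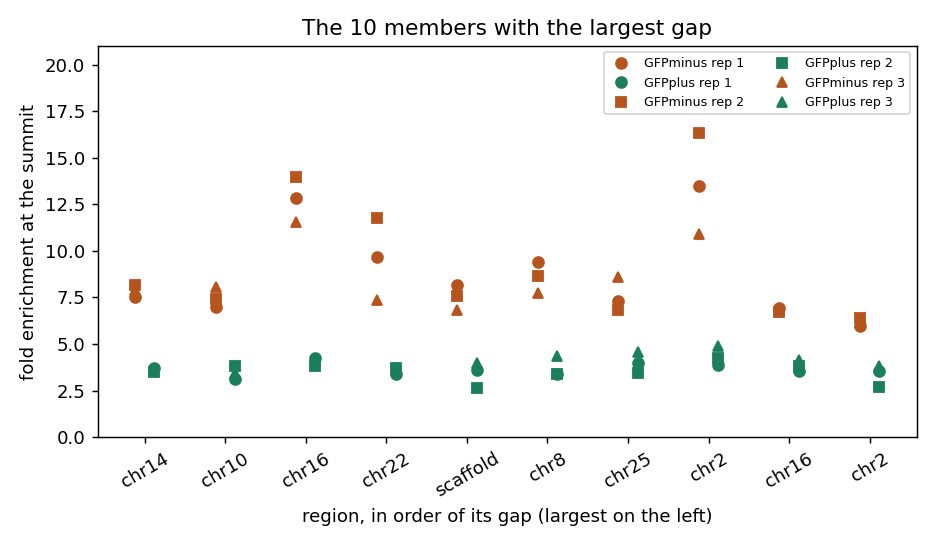
Fold enrichment at the summit (vertical axis) in each library for the 10 members with the largest gap, ordered from left to right by falling gap and labelled by chromosome. Orange symbols are GFPminus and green symbols GFPplus libraries, with a symbol shape per replicate number. GFPplus folds stay at or below 4.89 in all 10 regions, and GFPminus folds at or above 5.96.

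Other members were named for the highest percentile in their lowest GFPminus library or for the highest fold ratio. A region on the unplaced scaffold Zv9_scaffold3504 at 55080 to 55646 had folds of 15.2, 13.4 and 15.8 in GFPminus and 5.31, 5.14 and 3.57 in GFPplus replicates 1 to 3. It led both by its lowest GFPminus percentile (98.4) and by its fold ratio (3.16), and its GFPminus summits lay within 9 bp of each other. On chromosome 2 at 9400192 to 9400733, the fold was 16.8, 15.5 and 13.9 in GFPminus and 7.32, 6.95 and 7.61 in GFPplus. That region was also well above the median peak in the GFPplus lists (79.9 percentile or higher). The second highest fold ratio belonged to a region on chromosome 2 at 47609457 to 47609845, where the fold was 20.2, 15.0 and 12.8 in GFPminus and 5.39, 5.41 and 4.35 in GFPplus.

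A few values show what the threshold separated. Just inside it, a region on chromosome 11 at 39047442 to 39048061 had folds of 8.78, 7.88 and 9.48 in GFPminus and 5.54, 6.38 and 7.53 in GFPplus, with a gap barely over 10 points. Just outside it, a region on chromosome 3 at 17838331 to 17839192 had folds of 15.0, 14.9 and 16.8 in GFPminus and 8.97, 7.46 and 8.88 in GFPplus, with a gap of 9.97 points. The excluded region thus had a larger fold ratio (1.85) than the included one (1.34). Another outside, on chromosome 20 at 7029422 to 7030099, had a ratio of 1.13.

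Whether the ranking held in libraries whose percentiles had no part in the choice was examined by setting aside 1 GFPminus and 1 GFPplus library at a time. Region borders, and with them the width limits, still came from the peaks of all 6 lists. The rule was applied to the other 4 libraries, and the regions it chose were then looked up in the pair set aside. With GFPminus replicate 1 or 2 set aside, 1042 to 1242 regions were chosen, and between 88.0% and 93.9% of those called in both held-out libraries ranked higher in GFPminus. Over all candidates of the same 4 libraries the share was 69.8% to 80.2%; these 2 GFPminus lists are the longest of the 6. With GFPminus replicate 3 set aside, 5002 to 5744 regions were chosen, and the share was between 35.3% and 59.3%, against 23.7% to 38.3% over all candidates.

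When percentiles were taken among the candidates instead, so that list length carried less weight, between 58.1% and 84.9% of the chosen regions ranked higher in the held-out GFPminus library. The share over all candidates was then 41.5% to 51.2%. The chosen regions thus exceeded their candidates in each of the 9 pairs under both rankings, by the least where GFPminus replicate 3 was set aside with GFPplus replicate 2 (35.3% against 23.7%, and 58.1% against 41.5% among candidates). When GFPminus replicate 1 and GFPplus replicate 3 were set aside, 486 of the 1175 chosen regions were called in that GFPminus library alone and 5 in that GFPplus library alone. Over the 20579 candidates these counts were 2625 and 167. With GFPminus replicate 3, the shortest list, set aside with GFPplus replicate 1 or 2, 5002 and 5684 regions were chosen. Of these, 189 and 174 were called in that GFPminus library alone and 1203 and 1265 in the GFPplus library alone. Of the 24600 and 24787 candidates of those pairs, 452 and 431 were called in GFPminus alone and 5819 each in GFPplus alone. The part called in GFPplus alone was thus about the same in chosen regions and candidates. The part called in GFPminus alone was larger in the chosen regions. With GFPplus replicate 3 in place of these, 5744 regions were chosen. Of them, 1326 were called in the GFPminus library alone and 893 in the GFPplus library alone, against 2625 and 5819 of 29413 candidates. The pairs share libraries and regions are not replicates, so no p was computed.

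**Figure D4:**
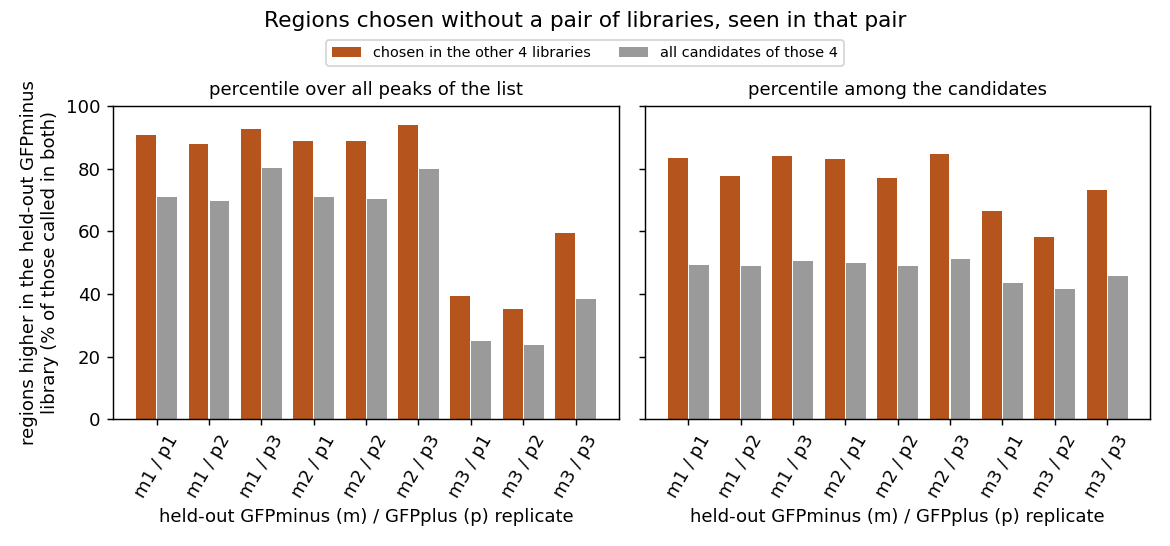
Share of regions that ranked higher in the held-out GFPminus than in the held-out GFPplus library (vertical axis, percent of regions called in both), for each of the 9 pairs held out (horizontal axis). Orange bars are regions chosen in the other 4 libraries and grey bars all candidates of those 4, with percentiles over all peaks on the left and among candidates on the right. Orange exceeds grey in every pair, and GFPminus replicate 3 gives the lowest shares on both sides.

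How strongly the members were called in each fraction was also read from the best 33437 peaks of each list by −log10 p, a number set by GFPminus replicate 3. This count was added after the data had been seen. A best peak was present for 94.6%, 95.6% and 100% of the members in GFPminus replicates 1 to 3, the last by construction. In GFPplus replicates 1 to 3 it was present for 44.5%, 51.9% and 55.9%. Over all candidates the shares were 87.3% to 88.2% in the 5 libraries other than GFPminus replicate 3. With best peaks alone, 102 members (20.4%) kept a peak in all 3 GFPminus libraries and in no GFPplus library, against 1.23% of the candidates, and 137 (27.5%) kept a peak in all 6, against 67.8%. The −log10 p of a peak belongs to the same peak whose fold chose the members, so these counts describe the members and add no separate evidence.

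The members were of ordinary width. Their median was 563 bp, against 572 bp for all candidates and 545 bp for the regions of the opposite direction. A single peak in every list made up 420 members (84.2%), against 78.2% of the candidates and 84.2% of the opposite regions. Within the members the peaks differed by fraction, with median widths of 493, 473 and 358 bp in GFPminus replicates 1 to 3 and 319, 291 and 214 bp in GFPplus replicates 1 to 3. The median candidate peak was 421, 412 and 328 bp wide in GFPminus and 424, 367 and 306 bp in GFPplus. A weaker peak crosses the caller's threshold over a shorter stretch, so width is tied to the measure that chose the members.

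Summit position was not used by the rule, but each summit was that of the highest-fold peak, whose fold was used. In the members, summits of different GFPminus libraries lay 60.7 to 71.0 bp apart on average, those of different GFPplus libraries 97.3 to 99.6 bp, and those of a GFPminus and a GFPplus library 82.4 to 90.3 bp. Distances between fractions thus fell between the distances within them. In the opposite regions the order was turned round, with 50.4 to 56.5 bp within GFPplus and 86.4 to 101 bp within GFPminus. The scatter of summits went with the lower fold in both sets, and the part of signal strength in it was not tested. The mean distance between fractions exceeded the mean within fractions by 4.08 bp in the members (86.7 against 82.6 bp, exact two-sided permutation p = 0.1, the smallest that 3 against 3 libraries allow). In the opposite regions it exceeded it by 8.82 bp (81.7 against 72.9 bp, exact permutation p = 0.1, again the smallest possible). Over all candidates it exceeded it by 1.29 bp (exact permutation p = 0.4). The excess was thus not particular to the members. Both sets were chosen with the fraction labels, and the permutation kept each set fixed. The rule sets which fraction is the weaker, and summits scattered more in that fraction. The p of either set is therefore not free of the choice. Without any one of the GFPminus libraries the difference in the members turned negative (−4.96 bp without replicate 1, −4.69 bp without replicate 2, −1.38 bp without replicate 3). The exact permutation p was 0.3 or higher in each of these cases. Without GFPplus replicates 1, 2 and 3 it was 11.5, 10.9 and 10.6 bp (exact permutation p = 0.1 each, the smallest possible). Leaving out a library takes 2 of the 3 within-fraction pairs of its own fraction out of the mean, so that the close GFPminus pairs or the wide GFPplus pairs weigh more, and the rule also chooses other regions. The sign was negative without each GFPminus library and positive without each GFPplus library, and a shift of the summits between fractions was not shown.

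The members were spread over the whole genome. They lay on all 25 numbered chromosomes (487 regions) and on unplaced scaffolds (12 regions, 2.40%, against 2.39% of the candidates). Members made up 4.24% of the candidates on chromosome 2 (34 of 802), 3.95% on chromosome 15 (25 of 633) and 3.92% on chromosome 7 (39 of 994), and least on chromosome 20 (12 of 733, 1.64%). These shares were set against 2.82% overall. Chromosome 7 had 4 opposite regions (0.402%, against 0.931% overall). When percentiles were taken among candidates, which gave 967 regions (5.46% of the candidates), the share was 7.34% on chromosome 7, 6.95% on chromosome 15, 5.99% on chromosome 2 and 6.00% on chromosome 20, so chromosome 20 then lay above the overall share. Within 1 Mb of the first or last peak of a chromosome lay 22 of the 487 members (4.52%), against 7.03% of the candidates.

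Few members had another member nearby, and members are a small part of the candidates. Windows of 100 kb held at most 2 members. This was reached in 20 windows, so no window stood out, and 459 windows held 1. Another member lay within 10 kb for 10 members (2.00%), in 5 pairs, of which 3 were on chromosome 3, 1 on chromosome 10 and 1 on chromosome 15. The closest pair was on chromosome 3 at 44307371 to 44308189 and at 44308782 to 44309253, with fold ratios of 1.72 and 1.66. Of the 165 opposite regions none had another within 10 kb. Another candidate lay within 10 kb for 37.9% of the members, 26.7% of the opposite regions and 34.4% of the candidates. Members are 2.82% of the candidates and opposite regions 0.931%, so these low counts do not show that either set is spaced apart.

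Candidates within 10 kb of a member numbered 243, of which 10 were themselves members. The other 233 were counted separately, a choice made after the data had been seen. In 36 of these 233 (15.5%) all 3 GFPminus percentiles exceeded all 3 GFPplus percentiles, against 489 of the 5912 candidates other than members near any candidate (8.27%). The share over all candidates, members included, was 9.87%. The reverse pattern was found in 7 of the 233 (3.0%), against 4.11% of the 5912 and 4.24% of all candidates. Neighbouring regions come from the same 6 libraries, and the counts are a description without a test.

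A region called in all 3 GFPminus and in no GFPplus library (GFPminus-only) lay within 10 kb of 31 members (6.21%), against 481 candidates (2.72%) and 5 of the 165 opposite regions (3.03%). A GFPplus-only region lay within 10 kb of 21 members (4.21%), near the 4.43% of the candidates, and of 15 opposite regions (9.09%). All of these classes were called in the same libraries, and the comparison is a description without a test. In counts added after the data had been seen, the share of members near a GFPminus-only region exceeded that of the candidates without each library in turn, from 5.82% against 3.15% without GFPminus replicate 1 to 25.5% against 21.2% without GFPminus replicate 3. The share of members near a GFPplus-only region ranged over the same 6 counts from 5.10% to 8.69%, against 4.98% to 8.05% of the candidates. It was above the share near a GFPminus-only region without GFPminus replicate 1 (7.09% against 5.82%) and without GFPplus replicate 3 (8.69% against 7.50%). Of the 967 regions found with percentiles among candidates, 5.89% lay near a GFPminus-only region and 4.65% near a GFPplus-only region. The median number of other union regions within 10 kb was 3 for members, opposite regions and candidates alike.

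**Figure D5:**
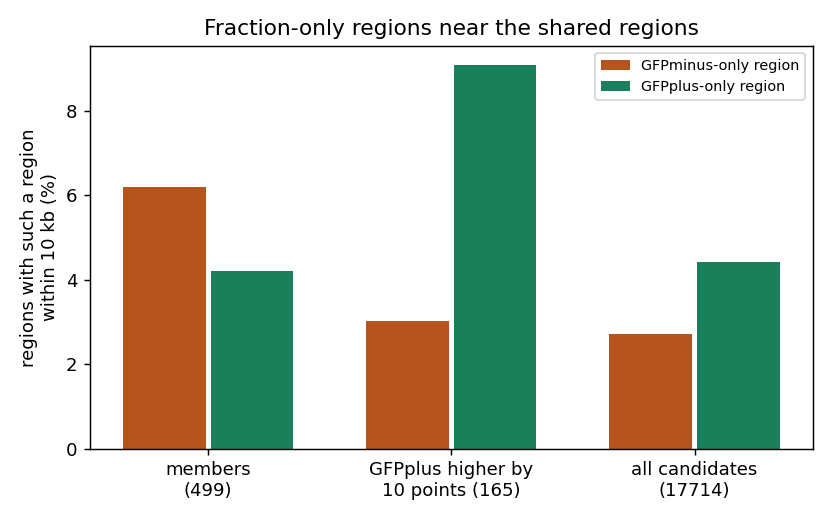
Share of regions (vertical axis, percent) with a GFPminus-only (orange) or a GFPplus-only region (green) within 10 kb between midpoints, for the 499 members, the 165 regions of the opposite direction and the 17714 candidates. GFPminus-only regions are near 6.21% of the members, and GFPplus-only regions near 9.09% of the opposite regions.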

How the data were processed

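ATAC-seq peak lists of 6 libraries were used. Tools named in the submitters' processing notes are cutadapt 1.3, Bowtie2 2.1.0, MACS2 and deepTools, with build Zv9. For settings, read filters and any shift of reads for the transposase, the sources used here give nothing. Peaks were called per library, per the file headers. Per peak, the authors deposited a summit offset, a −log10 q, a −log10 p and a fold enrichment, which is a ratio over background. These are the authors' values, and lists of unequal length make percentiles comparable only in part. Depth is unknown, and missing peaks do not show closed chromatin.

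Merging, percentiles, neighbours (midpoints within 10 kb) and summit distances were computed with Python 3.11.15, numpy 2.4.6 and pandas 2.3.3. Simulated lists of equal length served to check that the rule found planted regions and a planted summit shift. Neighbours, the permutation and lists of unequal length were not checked in that way. Coordinates are 1-based. Members and lists were chosen with earlier results of these data known. Regions were named by rule, namely the 10 largest gaps, the 5 highest in GFPminus, the 5 largest fold ratios 3 on each side of the threshold, and the fullest windows and chains; examples of these are printed. The sole test was an exact permutation over libraries, with the chosen regions kept fixed. Genes, motifs and sequences were not analysed here, as no Zv9 reference was used.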

Additional observations from a re-analysis of the deposited data

How the results depend on the processing

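The 499 members became 520 with −log10 p in place of fold, 494 with lists of equal length, 497 with an overlap of at least 50 bp, 544 without width limits, 420 with a single peak per list and 487 on numbered chromosomes. They became 271 with a −log10 q of at least 5, 843 with a margin of 5 points, 196 with 20 points and 967 with percentiles among candidates. In place of 165 regions, the opposite direction had 692 among candidates and 307 at equal length. It had 161 with a −log10 q of at least 5 and 171 with −log10 p. Of the 499, 359 were found again among candidates and 102 at equal length, where 137 had a peak left in all 6 lists. Leaving out a library, which asks for less by construction, gave 550, 545 and 3011 regions without GFPminus replicates 1, 2 and 3. The opposite direction then had 407, 444 and 594. Without GFPplus replicates 1, 2 and 3 there were 961, 1158 and 1093 regions, and 196, 283 and 293 in the opposite direction. Other treatments of ties, added after the data had been seen, gave 499 and 501.

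The share of members with another member within 10 kb (2.00%) was 6.10% among candidates and 5.67% at equal length, and 1.82% to 9.53% without 1 library. The summit difference of 4.08 bp ran from −4.96 to 11.5 bp without 1 library and from 3.18 to 5.61 bp otherwise. The mean held-out share (75.2%) was 77.0% with −log10 p and 76.4% among candidates. Over all candidates of the choosing libraries these means were 58.8%, 58.5% and 47.7%. The share of 75.2% is a mean of 9 pairs that share libraries, and they ran from 35.3% to 93.9%. Of the named regions, the gap turned negative among candidates for those on chromosome 11 (−5.17), chromosome 14 at 36380707 (−8.85), chromosome 1 (−11.3) and chromosome 20 (−6.16), and at equal length on chromosomes 11 (−3.16) and 20 (−2.71). All 4 lay at the threshold, and the cause was not tested. At equal length 18 of the 23 had no candidate.

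Deviations of same-numbered libraries correlated at 0.075, 0.039 and 0.117, and those of differently numbered libraries at −0.105 to 0.046. These values are low and cannot decide whether the numbers mark pairs. As no label states a pairing, the numbers were not taken as pairs. With a replicate block (10 points within each same-numbered pair, a weaker demand by construction) there were 1427 regions, and 341 in the opposite direction. The summit difference was not taken over those regions. For the 499 members (4.08 bp), an exact permutation within same-numbered pairs gave p = 0.25, the smallest that 3 pairs allow.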
